A study of Homo sapiens with 2 samples.

Results

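The albumin family genes ALB, AFP, AFM and GC held 36 of the 370863 distinct intervals in which LSD2 chromatin immunoprecipitation (ChIP) exceeded input in HepG2 cells. The 36 were taken by position: an interval belonged to a gene when its midpoint lay inside the hg19 gene body. The gene bodies were ALB at chr4:74269972-74287129, AFP at chr4:74301880-74321891, AFM at chr4:74347462-74369723 and GC at chr4:72607410-72671237. AFP had 19 of the 36, GC had 8, ALB had 7 and AFM had 2. The genes were selected on the number and width of the intervals in this same list, so the counts and widths below are descriptions and carry no test.

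There was 1 library from LSD2 ChIP and 1 from input, which is sonicated chromatin taken without an antibody. Both came from HepG2, an aneuploid human liver tumour line, cultured at 25 mM glucose with 10% serum and no further treatment named. The ChIP antibody was a rabbit polyclonal raised against residues 26 to 822 of human LSD2. The list gives a start and an end for each interval and no height, fold or p-value, the depth of both libraries is unknown, and with 1 library per condition there is no replicate error. No expression values were used here, so the HepG2 label could not be checked against liver markers.

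LSD2, the product of KDM1B, is a flavin-dependent demethylase that removes methyl groups from lysine 4 of histone H3 and is known from other human cells to sit within the bodies of transcribed genes. The albumin family encodes related plasma proteins that hepatocytes secrete. ALB encodes serum albumin, the main carrier protein of plasma. AFP encodes alpha-fetoprotein, the albumin of the foetal liver and yolk sac, which is shut down after birth and made again by many liver tumours, HepG2 among them. AFM encodes afamin, a carrier of vitamin E, and GC encodes the vitamin D binding protein. ALB, AFP and AFM follow one another on the same strand, in that order, while GC stands apart and is transcribed from the other strand. In the RefSeq gene order of GRCh38.p14, NPFFR2, ADAMTS3, COX18 and ANKRD17 lie between GC and ALB, and RASSF6 follows AFM.

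Of the 4 gene starts, that of AFP was the only start with an interval in the 250 bp directly upstream. This interval, at chr4:74301586-74301756 (hg19), was 171 bp wide and ran from 294 to 124 bp before the AFP start, so that 127 of its bases lay in the 250 bp window. Over the autosomes, 15.3% of 1 kb tiles had any base under an interval. The 10 kb upstream of AFP were covered to 15.5%. The share of 250 bp windows with an interval was not computed, so nothing is read from 1 of 4 starts. ALB and AFM each had their nearest interval further upstream, 859 bp (144 bp wide, from 74268970 to 74269113) and 556 bp (232 bp wide, from 74346675 to 74346906) from the start. The nearest interval to the GC start was 12.5 kb upstream. The 250 bases before the RefSeq start on GRCh38.p14, plus strand, are shown for AFP, ALB and AFM. Of these genes, only AFP had an interval in the 250 bp before its hg19 start. Capitals mark TATAAA, a core of the TATA box. The interval belongs to hg19 and was not placed base by base on these sequences. The step in position from the hg19 start to the RefSeq start is not equal in AFP, ALB and AFM. The RefSeq starts are therefore not taken to be the same bases as the hg19 gene starts. The printed windows may differ from the windows in which intervals were counted.
AFP, chr4:73435971-73436220: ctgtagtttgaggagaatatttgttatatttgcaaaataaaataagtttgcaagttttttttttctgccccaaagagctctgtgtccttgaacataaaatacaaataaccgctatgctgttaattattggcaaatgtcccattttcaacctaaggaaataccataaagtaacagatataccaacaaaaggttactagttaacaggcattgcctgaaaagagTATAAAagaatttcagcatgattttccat
ALB, chr4:73404037-73404286: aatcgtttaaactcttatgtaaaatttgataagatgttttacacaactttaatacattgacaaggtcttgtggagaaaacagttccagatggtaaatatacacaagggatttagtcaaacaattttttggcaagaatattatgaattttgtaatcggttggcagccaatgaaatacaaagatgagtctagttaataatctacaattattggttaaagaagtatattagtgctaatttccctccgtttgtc
AFM, chr4:73481495-73481744: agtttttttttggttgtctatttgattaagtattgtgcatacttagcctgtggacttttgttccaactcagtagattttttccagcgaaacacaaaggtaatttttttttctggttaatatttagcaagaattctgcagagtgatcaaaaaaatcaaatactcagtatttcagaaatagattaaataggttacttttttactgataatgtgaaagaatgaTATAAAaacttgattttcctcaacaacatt

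TATAAA began 29 bases before the RefSeq start in AFP and 30 before it in AFM, and was not found in the ALB window. The search covered both strands, and the motif was picked after the sequences had been seen. Among 35097 RefSeq promoter windows of the same 250 bp, 10.7% held TATAAA on either strand. On the strand of the gene, where AFP and AFM had it, the share was 6.80%. AFM, whose printed window also held the motif, had no interval in the 250 bp before its hg19 start.

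AFP carried LSD2-over-input intervals along nearly all of its 20012 bp. Its 19 intervals equal 9.49 per 10 kb, and they lay over 45.7% of the bases of the gene. They ran from 0.530 kb after the gene start to 19.8 kb, the last ending 191 bp before the gene end. The longest stretch of AFP without an interval was 1.91 kb. Of the 18 gaps between neighbours in AFP, 15 were under 1 kb and the median gap was 232 bp.

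The AFP intervals were of very unequal width, and the wide ones held most of the covered sequence. Widths ran from 142 to 1141 bp with a median of 388 bp. The 9 intervals of 400 bp or wider made up 74.0% of the covered bases of AFP. The widest interval, of 1141 bp at chr4:74311536-74312676, lay in the middle of the gene, from 9.66 to 10.8 kb after the start, and ranked 212 among 360454 autosomal intervals by width. The next was 900 bp wide, at chr4:74317720-74318619, 15.8 to 16.7 kb after the start. The third was 888 bp wide, at chr4:74313718-74314605, 11.8 to 12.7 kb after the start. The interval nearest the start inside AFP was narrow, at 149 bp (chr4:74302410-74302558).

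Within AFP the intervals fell into blocks when those up to 1 kb apart were joined. The first interval stood alone. A block of 5 followed, from 2.45 to 5.89 kb after the start, with intervals of 182 to 779 bp over 71.4% of its 3.44 kb. A block of 11 ran from 7.80 to 16.7 kb, with intervals of 142 to 1141 bp over 65.7% of its 8.94 kb, and contained 6 of the 9 wide intervals. The last 2 intervals, of 308 and 358 bp, lay from 18.3 to 19.8 kb. With AFP divided into 3 equal parts in the direction of transcription, 6, 7 and 6 intervals fell in the first, middle and last part. By bases the parts were covered to 39.1%, 59.4% and 38.6%. Of 10 equal parts of AFP, the first was covered to 7.45%, less than any other, and the sixth to 74.5%, more than any other.

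**Figure D1:**
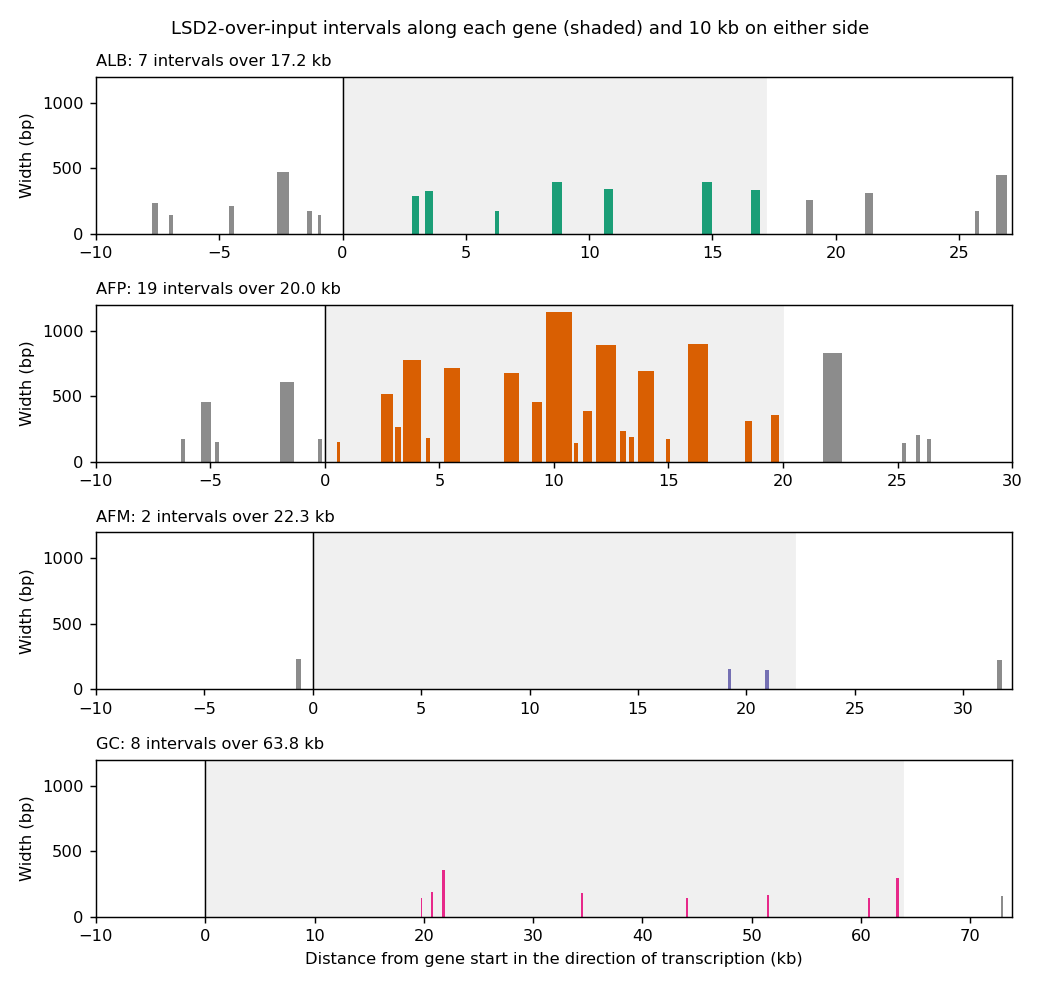
Each bar is an interval, drawn at its distance from the gene start in kb (horizontal axis) with its width in bp as its height, for ALB, AFP, AFM and GC from top to bottom. The gene body is shaded, coloured bars are the intervals of the gene, and grey bars lie within 10 kb outside it. AFP shows 19 bars up to 1141 bp, ALB 7 up to 400 bp, GC 8 up to 356 bp and AFM 2 near its end.

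The close spacing of intervals passed the ends of AFP on both sides. With gaps of up to 2 kb allowed, AFP lay inside a run of 22 intervals from 74299932 to 74324476 on chromosome 4 (hg19), which began 1.95 kb before the gene start and ended 2.59 kb after the gene end. The run took in 2 intervals upstream of AFP, of 609 and 171 bp, and 1 downstream, of 829 bp at chr4:74323648-74324476. The gaps that closed the run were 2692 bp before it and 2617 bp after it. Among 46 runs of 15 or more intervals in the genome by the same rule, this run ranked 7 by number of intervals, 12 by covered share (43.8%) and 14 by median width (422 bp).

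ALB had fewer and more evenly sized intervals than AFP. Its 7 intervals over 17.2 kb equal 4.08 per 10 kb and covered 13.1% of the gene. In order from the gene start they were 287, 324, 171, 400, 340, 394 and 333 bp wide. All but 1 of the 7 were thus between 287 and 400 bp, and the median was 333 bp. The 3 widest were at chr4:74278463-74278862 (400 bp), chr4:74284562-74284955 (394 bp) and chr4:74280586-74280925 (340 bp). The first ALB interval began 2.82 kb after the gene start, and the last ended 245 bp before the gene end, at 74286884. In 3 equal parts ALB had 2, 3 and 2 intervals, and its longest stretch without one was 3.64 kb.

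AFM, the neighbour of AFP on the other side, held 2 intervals over 22.3 kb, where the median autosomal tile of its length held 3. This equals 0.898 per 10 kb, and the intervals covered 1.33% of the gene. Both were narrow, at 152 bp (chr4:74366596-74366747) and 143 bp (chr4:74368339-74368481), and both lay in the last of 3 equal parts of AFM. The first 19.1 kb of AFM, 85.9% of its length, had no interval. The wide intervals seen in AFP, of 400 bp or more, numbered 0 in AFM.

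GC, the longest of the 4 genes, held 8 intervals over 63.8 kb, the same number as the median autosomal tile of its length. This equals 1.25 per 10 kb, and the intervals covered 2.54% of the gene. The GC density was 0.972 times that of the autosomes, each taken from its first to its last interval. That span counts in the interval-free stretches over 500 kb, which the tiles leave out. Read in the direction of transcription, the first 19.7 kb of GC, 30.9% of its length, held none. A group of 3 then lay within 2.28 kb, with widths of 143, 190 and 356 bp. Of the remaining 5, the widest was 297 bp, at chr4:72607731-72608027, ending 321 bp from the 3' end of the gene. The widest in GC was 356 bp (chr4:72649260-72649615), the next but one 190 bp (chr4:72650422-72650611), and the median was 174 bp. In 3 equal parts GC had 2, 2 and 4 intervals. A GC interval of 143 bp was the only one of the 36 that the list held on more than 1 line.

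ALB, AFP and GC each had 1 interval in the last 1 kb of the gene, of 333, 358 and 297 bp, while the last interval of AFM ended 1242 bp before its end. Over the autosomes 15.3% of 1 kb tiles had any base under an interval, and with 4 genes nothing is read from the count at gene ends. Within 1 kb of the gene start on either side there were 2 intervals at AFP, 1 at ALB, 1 at AFM and 0 at GC. At AFP these were the interval 124 bp upstream and that beginning 530 bp downstream. No interval crossed a gene boundary, so the same 36 were found by midpoint, by any overlap and by lying wholly inside.

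By density the order was AFP, ALB, GC and AFM, and by median width AFP, ALB, GC and AFM again. AFP had 2.33 times the density of ALB, 7.58 times that of GC and 10.6 times that of AFM. The ratios of covered share were larger, at 3.49, 18.0 and 34.5, AFP intervals being also wider. The median width of AFP was 55 bp above that of ALB. Order-statistic 95% intervals of the medians, 189 to 715 bp for AFP and 171 to 400 bp for ALB, overlap. That of ALB is the full range of its 7 widths. GC and AFM, neighbours at the low end, had densities in a ratio of 1.40, from 8 and 2 intervals. Neighbouring intervals are not independent, and all intervals quoted on counts and medians cover counting error only.

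**Figure D2:**
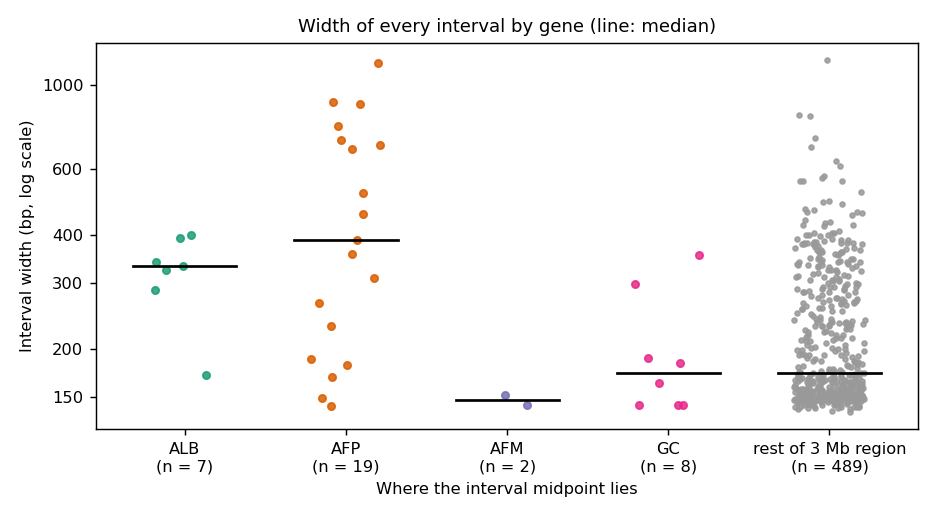
Points are single intervals, with width in bp on a log scale, for the 4 genes and for the 489 other intervals of the 3 Mb region. Horizontal lines are medians, at 333 bp in ALB, 388 bp in AFP, 148 bp in AFM, 174 bp in GC and 173 bp in the rest.

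Against the rest of chr4:72000000-75000000, AFP and ALB had higher densities and GC and AFM lower ones, and AFP differed most. The rest of this 3 Mb held 489 intervals, or 1.70 per 10 kb, and 3.93% of its bases were covered. AFP had 5.59 times this density (exact binomial 95% interval 3.33 to 8.82) and 11.6 times this covered share. ALB had 2.40 times the density (0.960 to 4.98) and 3.33 times the covered share. GC had 0.737 times the density (0.317 to 1.46) and AFM 0.529 times (0.0638 to 1.92). The counting intervals of ALB, GC and AFM include a ratio of 1 and that of AFP does not. The genes were selected on interval number and width in this same list, and neighbouring intervals are not independent. None of these counting intervals is therefore a test of a difference in density. The 4 genes together had 2.92 intervals per 10 kb, 1.72 times the rest, but 0.969 times the rest when AFP was left out. Without AFP the pooled density was thus close to that of the rest.

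In width, AFP and ALB had higher medians than the rest of the region, and GC and AFM lay closer to it. The median of the rest was 173 bp, as over all autosomes. The AFP median was 215 bp above it, that of ALB 160 bp above, that of GC 0.5 bp above and that of AFM differed by -25.5 bp. The order-statistic 95% interval of the ALB median, 171 to 400 bp, is the full range of its 7 widths and includes 173 bp. That of AFP, 189 to 715 bp, does not include 173 bp. As the genes were selected on interval width in this same list, neither is a test of a difference in width. Intervals of 400 bp or more made up 47.4% of those in AFP (exact binomial 95% interval 24.4% to 71.1%) and 7.16% of those in the rest (5.04% to 9.81%). They numbered 1 of 7 in ALB, 0 of 8 in GC, which allows a share of up to 36.9%, and 0 of 2 in AFM, which allows up to 84.2%. Intervals of 200 bp or more made up 85.7% in ALB (42.1% to 99.6%), 73.7% in AFP and 25.0% in GC, against 41.9% in the rest.

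The immediate surroundings gave a different picture for ALB than the 3 Mb region did. ALB had 4.08 intervals per 10 kb, against 5.25 in the 17.2 kb upstream and 4.66 in the 17.2 kb downstream. The ALB covered share of 13.1% was likewise close to 14.1% upstream and 13.2% downstream. ALB was thus no denser than its flanks. Its median width was 333 bp, against 211 bp upstream and 216 bp downstream. All but 1 of the 7 ALB intervals, at 287 bp or more, were wider than both flank medians. The 171 to 400 bp interval of the ALB median is the full range of ALB widths, so nothing is read from its holding both. The widest interval was 400 bp in ALB, against 567 bp upstream and 609 bp downstream. The 14.8 kb between ALB and AFP held 7 intervals, or 4.75 per 10 kb, with widths of 146 to 609 bp. The downstream flank of ALB takes in the first 2.4 kb of AFP.

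AFP did stand above its surroundings. Its 9.49 intervals per 10 kb compare with 4.50 in the 20012 bp upstream, which includes the end of ALB, and with 2.50 in the 20012 bp downstream. Its covered share of 45.7% compares with 14.2% and 8.52%. The 25.6 kb between AFP and AFM held 6 intervals, of which the 829 bp interval was the only one of 400 bp or more. Density thus changed from AFP over the AFP to AFM spacer, at 2.35 per 10 kb, to AFM at 0.898.

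AFM had 0.898 intervals per 10 kb, against 2.25 in the 22.3 kb upstream and 0.449 in the 22.3 kb downstream. GC had 1.25 per 10 kb, against 0.627 in the 63.8 kb upstream and 1.88 in the 63.8 kb downstream, and its mean over both flanks equalled its own density. The upstream 10 kb of GC held 0 intervals, where ALB had 6, AFP 5 and AFM 1 in the same distance.

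**Figure D3:**
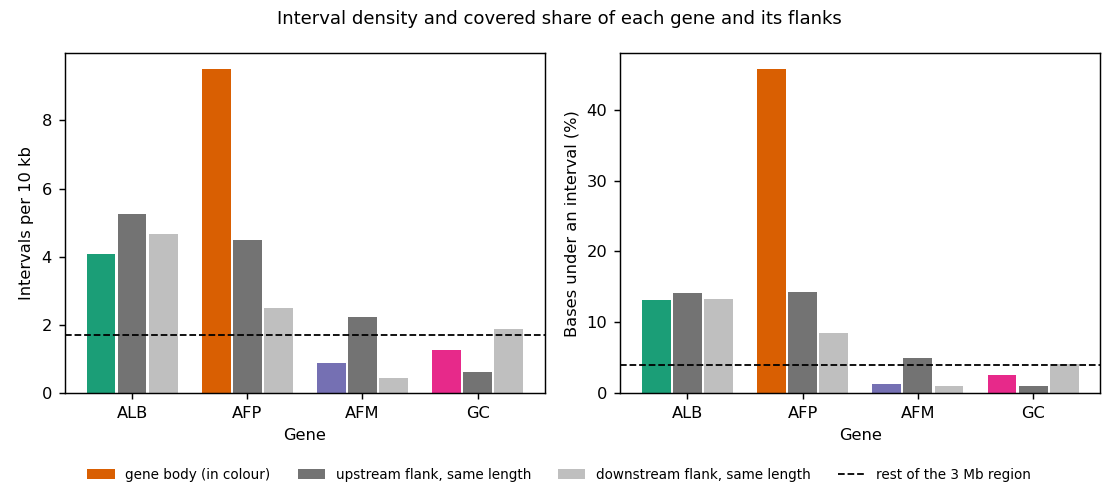
Bars give intervals per 10 kb (left) and the percentage of bases under an interval (right) for each gene body, in colour, and for upstream and downstream flanks of the same length, in grey. The dashed line is the rest of the 3 Mb region, at 1.70 per 10 kb and 3.93%. The AFP bar is above both of its flanks and the ALB bar is close to its own.

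Tiles of equal length give the background for these counts. Autosomes were cut into tiles of the length of each gene, and the share of tiles with as many intervals as the gene, or more, was read off. For AFP this was 4 of 134585 tiles, or 0.00297%, of which 1 overlapped AFP itself. By covered share it was 7 tiles, or 0.0052%. With the tiles shifted, 10 tiles, or 0.00743%, reached the AFP count, so this share depends on where the tiles begin. In tiles from position 1, the median AFP-length tile held 2 intervals and the fullest held 24. For ALB the share was 3.24% by count and 1.38% by covered bases. For GC it was 52.3% and 53%, and for AFM 71.8% and 74.4%. The genes were picked in view of this list, so the shares place them in the genome and are not probabilities.

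**Figure D4:**
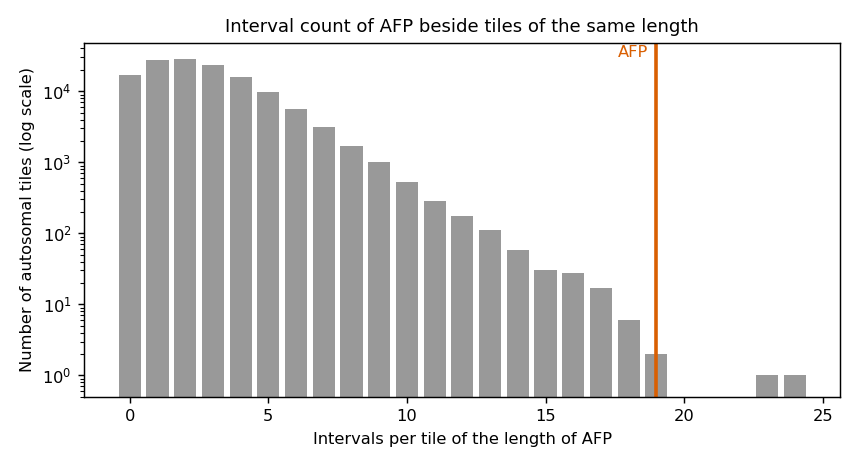
Bars count autosomal tiles of the length of AFP (vertical axis, log scale) by the number of intervals they hold (horizontal axis), and the line marks the 19 of AFP. The tiles have a median of 2, and 4 of 134585 reach 19 or more.

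Across the 3 Mb in bins of 10 kb, AFP gave the highest values. The bin from 74310000 to 74319999, wholly inside AFP, held 11 intervals and was covered to 55.5%, more than any other of the 300 bins. The bin before it, from 74300000, followed in cover, with 8 intervals and 36.4%. The median bin held 1 interval and was covered to 2.995%, and 64 bins held none. The third bin by cover lay outside the 4 genes, from 74240000 to 74249999, about 20 kb before ALB, with 7 intervals and 27.3%. In all, 6 bins were covered to 20% or more, and 3 of them overlapped AFP. The outer ones of these 3 reached past the AFP ends and also took in intervals outside the gene.

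**Figure D5:**
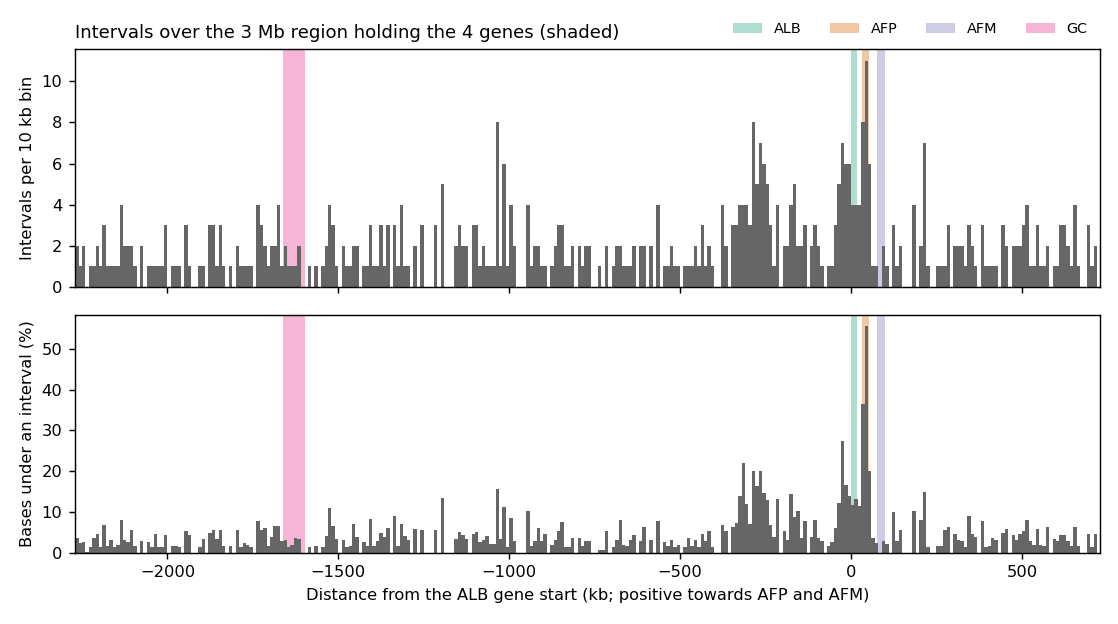
Intervals per 10 kb bin (top) and percentage of bases covered (bottom) are plotted by distance from the ALB start in kb, with the 4 genes shaded. The highest bin, with 11 intervals and 55.5% cover, lies in AFP, and raised bins also occur outside the genes.

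How many intervals are called, and how wide they are, depends on reads and on the DNA copies of a region as well as on LSD2. Read depth and copy number along chromosome 4 were not measured here and their part in these densities was not tested. ALB, AFP and AFM lie within 99.8 kb of each other. Over that stretch the density was 4.11 per 10 kb as a whole, with 9.49 in AFP, 4.08 in ALB and 0.898 in AFM.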

How the data were processed

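The deposited list gives the start and end positions of regions where LSD2 ChIP exceeded input in HepG2 cells (1 library each), and no other value. Reads were trimmed and duplicates removed before the authors ran MACS for LSD2 against input, per the file headers, with a read and fragment length of 120 bp, an effective genome of 2700 Mb, a p-value cutoff of 1e-05 and an enrichment factor of 32. The submitters' processing notes name BWA and hg19, without versions. Per the file headers the ChIP and input runs carry different dates, so library and run cannot be told apart. Depth is unknown.

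Identical lines were counted as 1 interval (414095 lines gave 370863) and starts were taken as counted from 0. Positions are given counted from 1. Gene bodies and the 3 Mb region were those of hg19 in the rule that defines the set. The strand of GC is textbook knowledge. Covered share counts gene bases under any interval. Tiles started at position 1 of each autosome, within its first to last interval and outside interval-free stretches over 500 kb. Intervals on shares and ratios are exact binomial, at 95%. The genes, the motif and the comparisons were chosen with earlier results of this list known, and no test was run. The text names the 3 widest intervals of each gene, the nearest to each start and the ends of any run. Blocks up to 1 kb apart and the intervals beyond this rule were chosen after their values were seen. The counting steps were tested on simulated intervals. Python 3.11.15, numpy 2.4.6 and scipy 1.17.1 were used. Alternatives changed the lines, widths, merging, membership, reference, run gap, flank and tiles.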

Additional observations from a re-analysis of the deposited data

How the results depend on the processing

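Of 133 values for 35 results under alternative settings, 106 stayed within the counting interval of the reported value, or within 1.5 times of it where it has none, on the same side of the comparison. Some of the 106 could not change. Membership by any overlap or by lying wholly inside took the same intervals as the midpoint rule. Genes without a repeated line also had none on 3 lines or more. The 106 is therefore not a measure of robustness. Among intervals of at least 200 bp, the density ratio to the rest of the region was 9.82 for AFP, 0 for AFM and 2.50 for the 4 genes together, the covered ratio was 17.5 for AFP, 5.12 for ALB and 0 for AFM, and tiles as full as the gene were 0.959% for ALB and 0.0134% for AFP. Runs of such intervals reached 1 interval at GC and 0 at AFM. Among intervals of at least 400 bp, the density ratio was 37.0 for AFP, 0 for AFM and GC, and 6.67 for the 4 together. The median width minus that of the rest was then 237 bp for the 4 together and -67 bp for ALB, which has 1 such interval. Counting every line turned the GC width difference to -10 bp, since its repeated interval is narrow. Leaving out AFP, an alternative chosen after seeing the data, turned the pooled density ratio to 0.969. With the 200 kb on either side as reference, the covered ratio was 1.93 for ALB and 7.32 for AFP, and the width difference of AFM -74.5 bp. Runs held 11 intervals at AFP and 1 at AFM with gaps up to 1 kb, and 5 at ALB with gaps up to 3 kb. With flanks of 10 kb the GC density ratio to its flanks was 2.51, from 1 flanking interval. Shifting the tiles gave 0.00743% for AFP, or 10 tiles. Intervals on 3 lines or more were 0% in GC. Where the construction does not show the cause, the cause was not tested. Widths could not be compared in settings that left no interval. No paired analysis was possible because ChIP and input had a single library each. With depth unknown, a stretch without intervals, such as the first 19.1 kb of AFM, cannot be told from one with too few reads.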

Other observations

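In the rest of the 3 Mb region, 2.25% of the distinct intervals were listed on more than 1 line (exact binomial 95% interval 1.13% to 3.99%), against 6.56% on chromosome 4 and 10.3% on the autosomes. In the 4 genes the number was 1 of 36, or 2.78% (0.0703% to 14.5%), an interval that includes the autosomal share, and the repeated interval lay in GC (1 of 8). The labels and header do not say what a repeated line stands for.

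Neighbouring 10 kb bins with 3 or more intervals each, in stretches of at least 4 bins, occurred at 2 places in the 3 Mb. The stretch from 74220000 to 74329999 takes in ALB and AFP and begins 50 kb before ALB. Its 11 bins held 3 to 11 intervals, 64 in all, and were covered to between 5.96% and 55.5%. The other, from 73920000 to 74039999, lay 350 to 230 kb before the ALB start and in none of the 4 genes. Its 12 bins held 3 to 8 intervals, 55 in all, and were covered to between 6.31% and 21.99%. The rule for a stretch was chosen after the bins had been seen.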
